A study of Mus musculus with 9 samples.

Results

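The genes described here are 10 regulators and targets of the tumour suppressor p53 in mouse lung. They are Trp53, Mdm2, Mdm4, Ppm1d, Ccng1, Sesn1, Sesn2, Btg2, Eda2r and Plk2. They were chosen by name for their place in p53 feedback and in the stress response, with earlier results of these data known. They are 10 of the 19698 named genes measured. All 10 were on the array, through 12 probes with 1 spot each per array, and Mdm4 and Eda2r each had a second probe. Where a gene had more than 1 probe, the probe with the higher mean log2 intensity stood for it.

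The arrays were hybridised with lung RNA of male C57BL/6 mice aged 10 weeks. The 4 control arrays were labelled control lung, and the 5 irradiated arrays were labelled irradiated left lung tissue. Anaesthesia with Zoletil and Rompun during irradiation is listed in the labels of every array. According to the methods, RNA of triplicate experiments was pooled before it was labelled, so an array stands for a pool and not for 1 mouse. The labels do not say at which dose, in which lung region or how long after irradiation a sample was taken, and the spread among the irradiated arrays contains any such difference. The labels name no separate animals for the arrays, so p-values measure the spread between these arrays.

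The p53 protein is a transcription factor that is kept low in resting cells. Mdm2, an E3 ubiquitin ligase, marks p53 for degradation, and Mdm4 holds p53 inactive. DNA damage frees p53 from both, and p53 then switches on genes that halt the cell cycle, repair damage or kill the cell, among them Mdm2 itself, the phosphatase gene Ppm1d and the cyclin G1 gene Ccng1, whose products turn p53 down again.

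The share of gene spots well above background was 72.8% to 89.1% per array, and no spot was saturated. Surfactant and other type II alveolar markers, the defining genes of lung epithelium, exceeded background clearly on each of the 9 arrays for 7 of 7 genes. Their summed level was 20.35 to 20.43 in controls and 20.26 to 20.42 in irradiated arrays, in log2 units of normalised intensity. Sftpc, the brightest of them, weighs most in this sum and read 19.36 or 19.43 on every array. Quantile normalisation gives each array the same set of values, so genes this bright can vary little after it. The summed level is therefore not read as a measure of type II cell content. The median log2 difference of the 7 genes, irradiated minus control, was −0.19, with 2 positive and 5 negative (Slc34a2 −0.34), and none passed. Muscle markers differed between arrays. The summed level of 8 cardiac markers was 13.52 on irradiated array 1 and 17.39 to 18.32 on the other 8 arrays, and that of 7 skeletal muscle markers was 16.87 on control array 3 and 9.94 to 11.40 on the others. All 8 cardiac markers had a negative difference (median −1.26), as did all 7 skeletal muscle markers (median −1.86), and none of them passed. Among the cell type lists, all irradiated arrays lay above all controls in the summed level of 5 type I alveolar markers (17.75 to 17.94 in controls, 17.98 to 18.23 in irradiated). They lay below all controls for 5 club and ciliated cell markers (19.89 to 19.98 in controls, 19.67 to 19.84 in irradiated) and for 5 mast cell markers (13.28 to 13.60 in controls, 12.29 to 12.9995 in irradiated). Of the type I genes, Pdpn alone (0.52) had all irradiated arrays above all controls. All 5 type I genes were positive, the lowest being Hopx (0.08), and none passed. Of the club and ciliated genes, Cyp2f2 alone (−0.56) had all irradiated arrays below all controls. Scgb1a1 was at −0.03, and 4 genes were negative and 1 positive (Foxj1 0.12). Of the mast cell genes, Kit alone (−0.83) had all irradiated arrays below all controls, and 3 genes were negative and 2 positive (Cma1 0.16, Cpa3 0.14). Other lists shifted in their median while their summed levels overlapped. Adipose markers had a negative difference in 5 of 5 genes, with a median of −1.75 (Adipoq −2.53, Plin1 −2.41), and a summed level of 14.27 to 15.82 in controls and 12.37 to 15.27 in irradiated arrays. Macrophage markers had a median of 0.60 over 7 genes, and a summed level of 16.45 to 17.31 in controls and 17.11 to 17.55 in irradiated arrays. Of the 7, 4 had an unadjusted p under 0.05 upward (Gpnmb 2.39, limma adjusted p = 0.209), beside 7.37% of all genes. The 7 fibroblast markers had a median of 0.30, with 5 positive and 2 negative differences (Dcn −0.49, Lum −0.27), and 1 of them passed, the fibronectin gene Fn1 (0.90, limma adjusted p = 0.0326). Smooth muscle markers had a negative difference in 5 of 5 genes (median −0.53), as did neutrophil markers (5 of 5, median −0.45), and none of these passed. The part of these shifts in the results below was not tested, and in whole tissue a change in the number of cells of a type and in RNA per cell cannot be told apart.

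The promoters of the pair of members with separated groups are shown first, because p53 binds DNA at a consensus site made of a pair of half-sites. The sequences are the 250 bases before the gene start, written 5′ to 3′ on the strand of the gene, from RefSeq on the mouse assembly GRCm38.p6. Capitals mark the best match to the full p53 site, a pair of half-sites with a gap of at most 13 bases and at most 1 mismatch in all, and the Eda2r stretch has none. The Ccng1 stretch lies at chr11:40755287-40755536, minus strand, and the Eda2r stretch at chrX:97377210-97377459, minus strand.
Ccng1: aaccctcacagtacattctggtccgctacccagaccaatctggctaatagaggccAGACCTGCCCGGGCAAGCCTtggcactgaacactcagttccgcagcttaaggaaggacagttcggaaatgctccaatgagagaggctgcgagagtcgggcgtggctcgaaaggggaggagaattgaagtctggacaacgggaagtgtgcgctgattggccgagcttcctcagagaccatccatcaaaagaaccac
Eda2r: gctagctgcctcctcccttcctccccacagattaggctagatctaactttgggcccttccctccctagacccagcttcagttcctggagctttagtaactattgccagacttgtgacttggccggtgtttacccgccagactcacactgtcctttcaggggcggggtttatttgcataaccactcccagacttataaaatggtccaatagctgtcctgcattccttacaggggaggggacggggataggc
The Ccng1 stretch held a full site with no gap and 1 mismatch, whose second half-site began at position −185 from the gene start and matched the consensus in full. Such a full site was present in 1.093% of all 32851 promoter windows of 300 bases (250 before the start and 50 after it). No half-site was found in the Eda2r window, which says only that these letters are absent from this stretch. All 10 members had a window in the table, and 12 windows in all.

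Exact half-sites were also found near the start of 4 further members, and they are shown with 20 bases on each side, the half-site in capitals. The stretches lie at chr11:69580264-69580313, plus strand for Trp53, chr10:117710915-117710964, minus strand for Mdm2, chr11:85311102-85311151, plus strand for Ppm1d and chr10:41887246-41887295, plus strand for Sesn1.
Trp53: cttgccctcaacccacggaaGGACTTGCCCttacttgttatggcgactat
Mdm2: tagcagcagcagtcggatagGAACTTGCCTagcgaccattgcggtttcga
Ppm1d: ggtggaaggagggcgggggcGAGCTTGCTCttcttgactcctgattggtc
Sesn1: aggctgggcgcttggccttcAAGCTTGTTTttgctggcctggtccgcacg
The half-site is its own reverse complement as a consensus, so both strands were searched at once. It was present in 5 of 12 member windows, or in 5 of 10 genes, against 8.356% of all windows and 9.554% of 27025 genes. Among the other p53 targets with a window, it was present in 9 of 21 genes (42.86%). The full site was present in 10% of member genes, 19.05% of the other targets and 1.24% of all genes. Both lists were picked as known p53 genes, so these shares describe that choice and are not a result of the arrays. Counted from the gene start, the half-site began at −75 in Trp53, −186 in Mdm2, −132 in Ppm1d and −173 in Sesn1. No half-site was found in the windows of Mdm4, Sesn2, Btg2 or Plk2. A match is a description of the letters and was not measured as binding, and the members with a half-site include genes whose difference was near 0 here.

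Of the 10 members, Eda2r passed the limma test at an adjusted p under 0.05 over all probes, and it was higher in irradiated lung. None was lower past the threshold. Of all probes tested, 0.333% passed in either direction. Over all 19698 genes, 0.264% were called higher and 0.152% were called lower. At an unadjusted p under 0.05, 3 members were higher (Eda2r, Ccng1 and Mdm2) and 0 were lower, beside 7.37% of all genes higher and 4.98% lower. The irradiated arrays lay wholly above the controls for 2 members, Eda2r and Ccng1, which 3.4% of all genes did, and wholly below them for 0 members, which 1.76% of all genes did. The median log2 difference, irradiated minus control, was 0.31 over the 10 members and 0.0085 over all genes, and 8 members had a positive and 2 a negative difference.

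**Figure D1:**
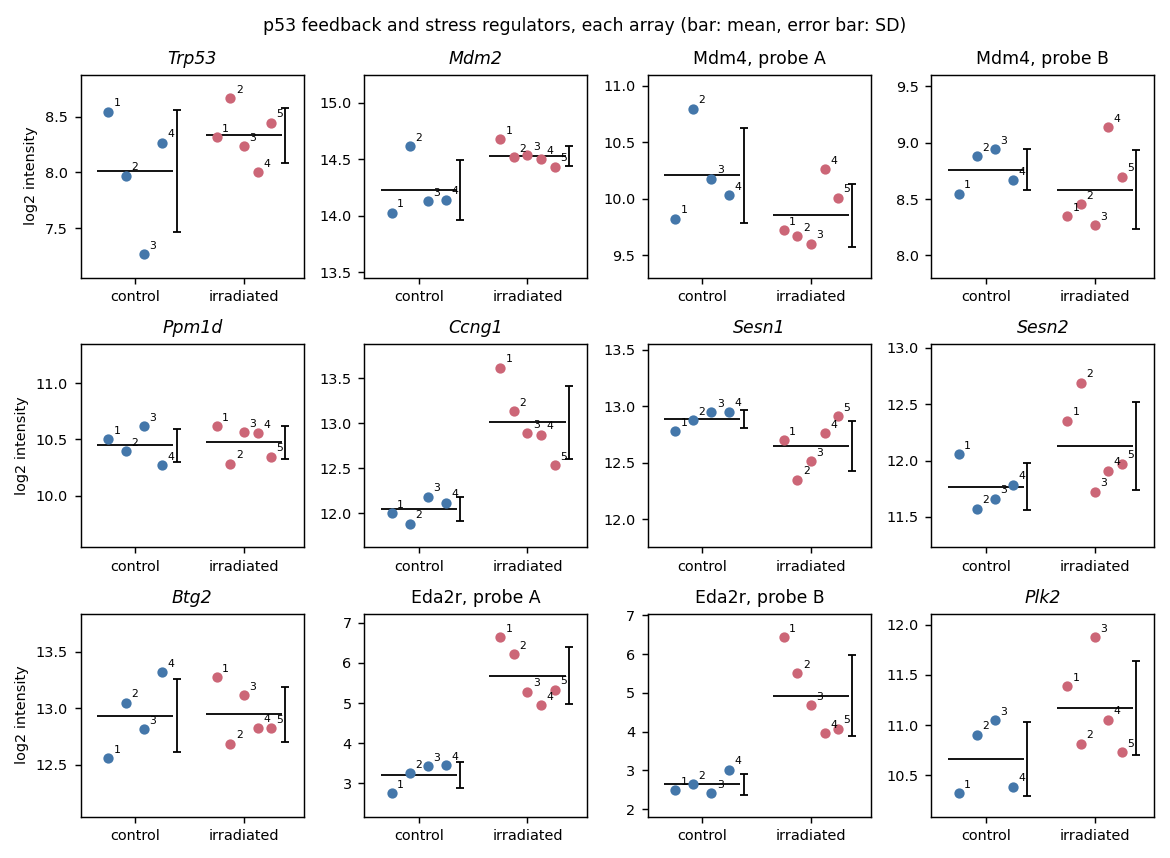
Normalised log2 intensity of each of the 12 member probes (vertical axis) on the 4 control and 5 irradiated arrays; numbers mark the arrays, horizontal bars the means and error bars the SD. Probe A is the brighter probe of a gene. The groups are separated for Ccng1 and for both Eda2r probes, and they overlap for the other probes.

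Trp53 encodes p53 itself, which is controlled mainly through the stability of its protein. Its log2 intensity was 8.54, 7.97, 7.27 and 8.27 on control arrays 1 to 4 and 8.31, 8.67, 8.23, 8.003 and 8.44 on irradiated arrays 1 to 5. The groups overlapped, and the spread came mostly from control array 3, the lowest of all. The log2 difference was 0.32 ± 0.25 (SE, n = 4 and 5), with a limma adjusted p of 0.776, and the 95% interval ran from −0.24 to 0.88. It was 0.073 without control array 3 and 0.50 without control array 1, and 0.18 with scaling to the 75th percentile and 0.20 in the authors' table.

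Mdm2, the ligase that degrades p53, was read by 1 probe, which does not tell apart transcripts from its separate promoters. Its log2 intensity was 14.03, 14.62, 14.13 and 14.14 on the control arrays and 14.68, 14.52, 14.54, 14.50 and 14.44 on the irradiated arrays. All irradiated arrays lay above 3 of the controls, and control array 2 lay within the irradiated range. The irradiated arrays differed little among themselves (SD 0.088, against 0.26 in controls). The log2 difference was 0.30 ± 0.12 (SE), a 1.23-fold higher mean, with a 95% interval of 0.039 to 0.57. The limma p was 0.0286 before and 0.401 after adjustment, and Mdm2 did not pass.

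Mdm4, the relative of Mdm2 that binds and silences p53, had a negative difference that did not pass the test. Its brighter probe read 9.82, 10.80, 10.18 and 10.03 on the control arrays and 9.72, 9.67, 9.60, 10.26 and 10.01 on the irradiated arrays. Irradiated arrays 1 to 3 lay below every control, while arrays 4 and 5 lay among them. The log2 difference was −0.35 ± 0.21 (SE), with a 95% interval of −0.82 to 0.12 and a limma adjusted p of 0.659, and without control array 2 it was −0.16. The second Mdm4 probe had the same sign and a smaller difference, −0.18 ± 0.19 (SE, limma adjusted p = 0.855), and irradiated arrays 1 to 3 were again below every control, while irradiated array 4 (9.14) was above every control.

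Ppm1d, the phosphatase Wip1 that removes activating phosphates from p53 and from damage kinases, differed by 0.03 ± 0.11 on the log2 scale (SE). Its intensity was 10.50, 10.40, 10.62 and 10.27 on the control arrays and 10.62, 10.29, 10.56, 10.56 and 10.35 on the irradiated arrays. The groups overlapped, the 95% interval was −0.22 to 0.28 and the limma adjusted p was 0.984. The direction was not settled, since the sign turned under some settings of the analysis.

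Ccng1, which encodes cyclin G1, a partner of the phosphatase that acts on Mdm2, was the feedback gene whose groups were separated. Its log2 intensity was 12.00, 11.89, 12.19 and 12.12 on the control arrays and 13.62, 13.13, 12.89, 12.87 and 12.53 on the irradiated arrays. The lowest irradiated array lay above the highest control. The controls were close together (SD 0.13) and the irradiated arrays were spread more widely (SD 0.40), from array 1 at the top to array 5 at the bottom. The irradiated mean exceeded the control mean by 0.96 ± 0.19 log2 units (SE), a 1.95-fold higher mean, with a 95% interval of 0.54 to 1.38. The limma p was 0.000462 before and 0.0763 after adjustment, so Ccng1 missed the threshold in the fit without blocks. With pairs of arrays alike in their scan as a block, described further on, the adjusted p was 0.0479, and with the pairs as a random block it was 0.00735. With arrays of the same replicate number as a block, the limma adjusted p was 0.264 and the log2 difference 1.08. By size of difference it stood at place 374 of 19698 genes counted from the highest. Without irradiated array 1, the log2 difference was 0.80 and the limma adjusted p was 0.0293, which was the single refit of 9 in which Ccng1 passed; in the other 8 the adjusted p was 0.0716 to 0.197.

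**Figure D2:**
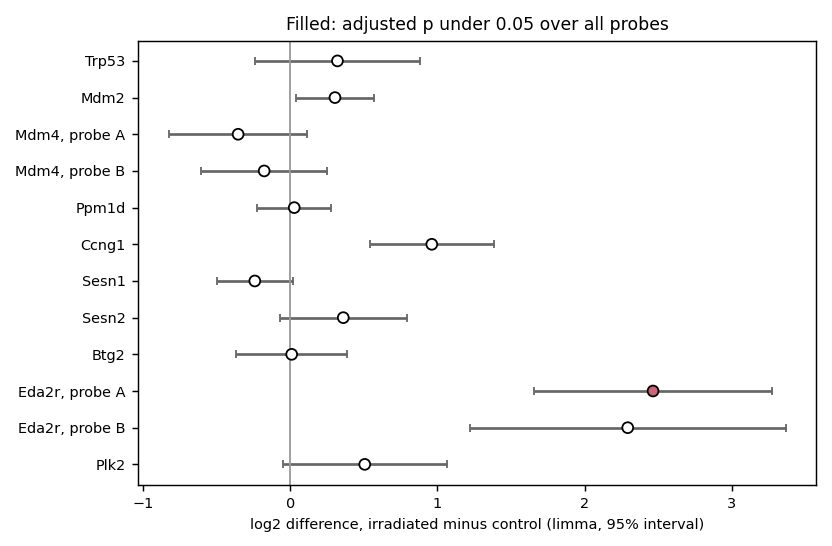
Log2 difference of each member probe, irradiated minus control (horizontal axis), with its 95% interval from limma; the filled point has an adjusted p under 0.05. The intervals of both Eda2r probes, Ccng1 and Mdm2 lie above 0, and those of the other 8 probes include 0. Most control values of the Eda2r probes were not well above background.

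The sestrins are stress proteins that limit oxidative damage and restrain the growth kinase complex mTORC1, and the members of this family had differences of opposite sign. Sesn1, of which p53 is the classical activator, read 12.78, 12.87, 12.95 and 12.95 on the control arrays and 12.70, 12.35, 12.51, 12.76 and 12.91 on the irradiated arrays. Irradiated arrays 1 to 4 lay below every control and array 5 lay among them. The means differed by −0.24 ± 0.12 log2 units (SE), with a 95% interval of −0.50 to 0.02 and a limma adjusted p of 0.543.

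Sesn2, which also answers to amino acid shortage and endoplasmic reticulum stress, read 12.06, 11.57, 11.66 and 11.78 on the control arrays and 12.35, 12.69, 11.72, 11.91 and 11.97 on the irradiated arrays. Irradiated arrays 1 and 2 were above every control, and the other 3 lay within the control range. The means differed by 0.36 ± 0.19 log2 units (SE), with a 95% interval of −0.07 to 0.79 and a limma adjusted p of 0.604. Without irradiated array 2 the difference was 0.22.

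Btg2, an antiproliferative protein that promotes the removal of messenger RNA tails, did not differ detectably. It read 12.56, 13.05, 12.81 and 13.32 on the control arrays and 13.27, 12.68, 13.11, 12.83 and 12.82 on the irradiated arrays. Every irradiated array lay within the control range. The log2 difference was 0.0099 ± 0.17 (SE), the 95% interval was −0.37 to 0.39 (limma adjusted p = 0.9996), and the sign turned under several settings.

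Plk2, a polo-like kinase that is both a p53 target and an early response gene, read 10.32, 10.90, 11.05 and 10.39 on the control arrays and 11.39, 10.81, 11.88, 11.05 and 10.73 on the irradiated arrays. Irradiated arrays 1, 3 and 4 were above every control, array 4 by 0.0027. This gave a log2 difference of 0.51 ± 0.25 (SE), with a 95% interval of −0.05 to 1.06 and a limma adjusted p of 0.560. It was 0.33 without irradiated array 3 and 0.28 in the authors' table.

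Eda2r, the X-linked receptor for the A2 form of ectodysplasin and a member of the tumour necrosis factor receptor family, rose in irradiated lung. The probe A_51_P161323 read 2.75, 3.26, 3.43 and 3.45 on the control arrays and 6.64, 6.21, 5.29, 4.95 and 5.34 on the irradiated arrays. The groups were far apart. The probe was well above background on 1 of 4 control arrays, control 3, so the size of the difference rests on control values near background and moved with the background correction. As fitted on the quantile normalised values, the difference was 2.47 ± 0.36 log2 units (SE, n = 4 and 5), with a 95% interval of 1.66 to 3.27 and a limma adjusted p of 0.0326.

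The second Eda2r probe, A_66_P122860, gave 2.48, 2.64, 2.41 and 3.01 on the control arrays and 6.44, 5.50, 4.67, 3.96 and 4.08 on the irradiated arrays. Its groups were separated too, and array 1 was again the highest. The limma adjusted p was 0.0918. The probe was not well above background on any control array and was so on 3 of 5 irradiated arrays. Its control level is therefore only bounded, and the difference plotted for this probe is not read as a size. With normexp this probe read 6.09 to 6.30 in controls and 6.44 to 7.26 in irradiated arrays, and in the authors' table, which lists it on 2 of 4 controls, the groups overlapped.

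Both Eda2r probes were dim, which limits how far the size of the change can be read. The brighter probe was well above background on 5 of 5 irradiated arrays. Before normalisation its processed signal was 7.03 to 19.7 units in controls and 33.1 to 66.3 units in irradiated arrays. The ratio of its median signal to the local background was 1.42 to 2.26 in controls and 2.14 to 4.60 in irradiated arrays, so on that raw ratio irradiated array 4 fell within the controls. With normexp background correction the groups stayed apart and the log2 difference was 0.69 (limma adjusted p = 0.116). In the authors' normalised table, which lists the probe on 3 of 4 control arrays, the groups overlapped and the log2 difference was 1.54 (limma adjusted p = 0.691). Each of the other 9 members was well above background on every array.

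The 3 genes whose levels followed Eda2r most closely over the 9 arrays, among 19657 genes compared, were Slc19a2, a thiamine transporter (Pearson r = 0.98), Mgmt, which repairs alkylated guanine (0.97), and Ces2e, a carboxylesterase (0.97). These values include the difference between the groups and are a description. Among members, Ccng1 followed Eda2r most closely (r = 0.95) and Sesn1 ran the other way (r = −0.64). Irradiated array 1 had the highest irradiated level of 5 of the 10 members, Mdm2, Ppm1d, Ccng1, Btg2 and Eda2r. That array was also the one low in cardiac markers. Without it the log2 difference of Eda2r was 2.24 (limma adjusted p = 0.0183), and the range over leaving out each array was 2.24 to 2.71. Eda2r passed the threshold in 1 of these 9 refits, the one without irradiated array 1, and its adjusted p lay between 0.0183 and 0.106 over them.

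**Figure D3:**
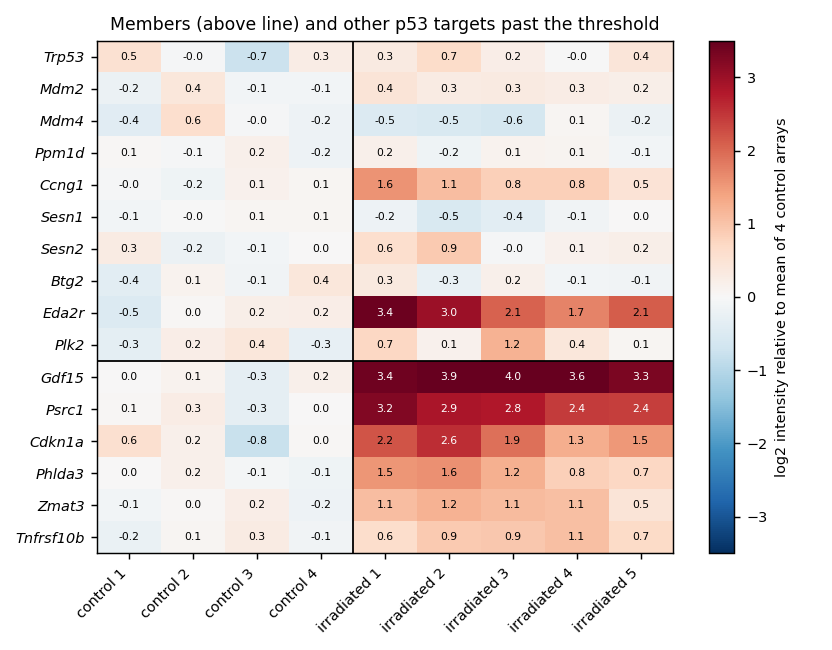
Log2 intensity after subtraction of the control mean for the 10 members (above the line) and the 6 other p53 targets past the threshold (below it), for each array. In Eda2r and Ccng1 every irradiated array lies above every control, with array 1 highest; in Gdf15 the irradiated arrays are between 3.3 and 4.0 above the control mean.

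Arrays of both groups that resembled each other in scan position and local background formed 4 pairs, and irradiated array 1 had no partner. The pairing was found after the data were examined, and the labels do not state it. Within the 4 pairs, Eda2r was higher in the irradiated array by 3.46, 2.03, 1.52 and 1.89 log2 units, of which the third alone has a control array where the probe was well above background. Ccng1 was higher by 1.13, 1.01, 0.69 and 0.42. Sesn2, Plk2 and Trp53 were also higher in 4 of 4 pairs, though Plk2 by as little as 0.0027, and Sesn1 was higher in 0 of 4. Mdm2 was higher in 3 of 4. How many of all genes were higher, or lower, in 4 of 4 pairs was not counted, so these counts only describe the members. With the pairs as a block in limma, the adjusted p was 0.0468 for Eda2r and 0.0479 for Ccng1, and 2 members passed. Of all 39303 probes, 1105 passed in that fit, against 131 in the main setting. The unpaired irradiated array 1 carries no weight in the fit with the block. Leaving it out without a block also gave 2 members, beside 483 of 39303 probes. The differences were near-equal (Eda2r 2.24 and Ccng1 0.80, against 2.23 and 0.81 with the block). With the pairs as a random block, which keeps irradiated array 1, 2 members passed as well (limma adjusted p = 0.00316 for Eda2r and 0.00735 for Ccng1). Calls rose over all probes too, with 2899 of 39303 passing in the random block fit.

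**Figure D4:**
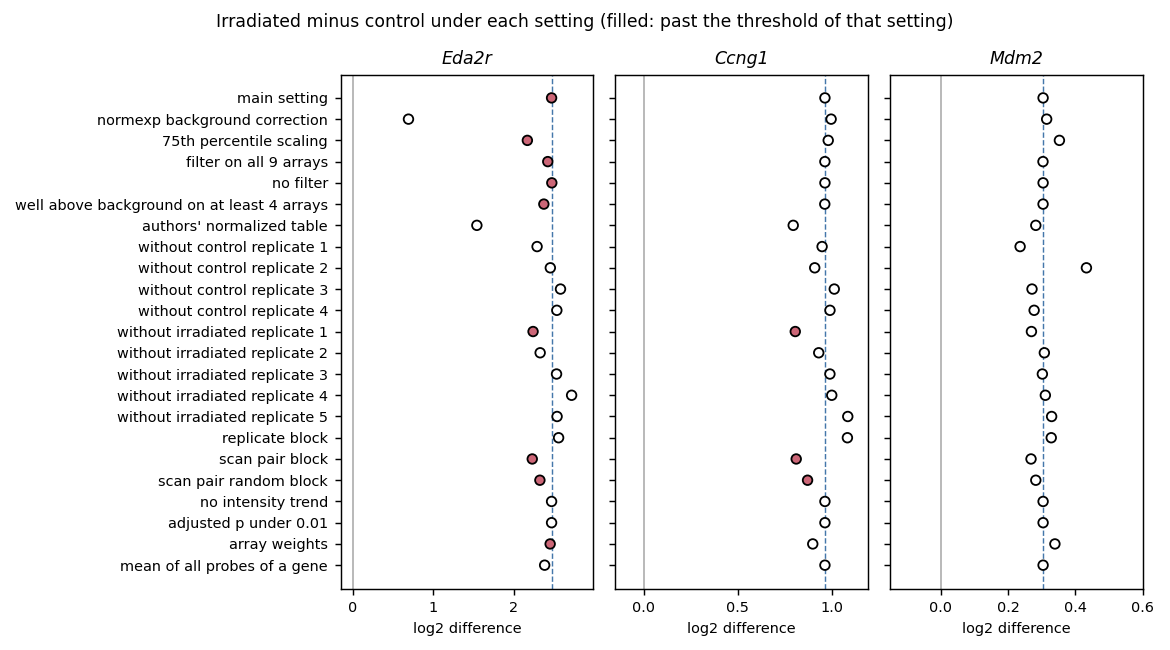
Log2 difference of Eda2r, Ccng1 and Mdm2 (horizontal axes) under the main setting and each alternative (rows), with filled points past the threshold of that setting and the dashed line at the main value. Eda2r lies at 0.69 with normexp and 1.54 in the authors' table and at 2.16 or more elsewhere; Ccng1 stays between 0.79 and 1.08; Mdm2 is above 0 in all and past the threshold in none.

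Further p53 targets outside the 10 members were read from a fixed list. That list was chosen with earlier results of these data known, so its counts and median describe the listed genes only. Of 30 listed genes, 29 were measured. Of these, 6 rose, 0 fell and 23 did not pass the test, beside 0.264% of all genes called higher and 0.152% lower. The median difference was 0.36 log2 units, against 0.0085 over all genes. Gdf15, a stress cytokine, rose by 3.64 ± 0.17 (SE, limma adjusted p = 5.23e-05), and Psrc1, a spindle protein, by 2.75 ± 0.20 (adjusted p = 0.00169). The cell cycle inhibitor Cdkn1a rose by 1.90 ± 0.31 (adjusted p = 0.0440) and Phlda3, an inhibitor of Akt signalling, by 1.19 ± 0.19 (adjusted p = 0.0415). Zmat3, an RNA-binding protein, rose by 0.98 ± 0.16 (adjusted p = 0.0419), and the death receptor gene Tnfrsf10b by 0.83 ± 0.14 (adjusted p = 0.0433). All irradiated arrays were above all controls for 9 of the 29, including these 6, which 3.4% of all genes did. Leaving out any control array, or irradiated array 2, 3 or 4, lowered the 6 calls to 2. Without irradiated array 1, 8 passed, among them Trp53inp1 and, in the lower direction, Dcxr. With the scan pairs as a block, 11 passed, adding Bax, Pmaip1, Trp53inp1, Aen and the lower gene Dcxr, and the random block added the lower gene Ddb2 for 12 in all. Calls over all 39303 probes rose in the same fits, from 131 in the main setting to 1105 and 2899. In the main setting the difference was −0.39 for Dcxr and −0.29 for Ddb2 (limma adjusted p = 0.308 and 0.456). The unadjusted p was under 0.05 for 15 genes upward and 3 downward, beside 7.37% of all genes upward and 4.98% downward. The Ccng1 difference of 0.96 lay close to that of Zmat3, which passed with a smaller standard error. In the main setting no lower gene passed, and the lowest difference was that of Perp, at −0.59 (adjusted p = 0.476).

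The regulators that act before p53, such as damage kinases and acetyltransferases, did not pass in any of 21 genes, with a median of −0.05. The highest differences were those of Cdkn2a (1.4998, adjusted p = 0.225), Chek2 (0.64) and Prkdc (0.15), and the lowest those of Chek1 (−0.23), Crebbp (−0.17) and Daxx (−0.10). Chek1 was well above background on 4 of 4 control and 4 of 5 irradiated arrays. Cdkn2a, which encodes the Mdm2 inhibitor Arf and p16, read 8.002, 8.67, 8.23 and 8.09 on the control arrays and 8.48, 9.0015, 10.63, 10.35 and 10.29 on the irradiated arrays. Its high arrays were irradiated 3 to 5, while Ccng1 and Eda2r were highest on irradiated 1 and 2.

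Relatives of the members, which share a family but are not all p53 targets, gave 0 calls among 18 genes, with a median of −0.01. The 3 highest were Plk4 (0.90), Plk3 (0.32) and Plk1 (0.29), and the 3 lowest were Edar (−0.65), Plk5 (−0.53) and Trp73 (−0.38). Edar was well above background on 2 of 4 control and 1 of 5 irradiated arrays, so its place is not settled. Eda, the ligand gene for Eda2r, was at −0.33 (adjusted p = 0.513), among 8 ligand and signalling genes of which 0 passed and the highest were Ikbkg (0.28), Traf3 (0.25) and Edaradd (0.24). Edaradd was well above background on 3 of 4 control and 2 of 5 irradiated arrays. The lowest of that list after Edar and Eda was Ikbkb (−0.05). Among 20 genes of the sestrin and mTORC1 axis, 0 passed, between Rragc (0.28), Rraga (0.20) and Sec13 (0.16) at the top and Prkaa2 (−0.29), Wdr24 (−0.20) and Mios (−0.19) at the bottom. At an unadjusted p under 0.05, 1 upstream regulator, 1 relative and 1 gene of Eda2r signalling were higher, beside 7.37% of all genes. At the same limit, 3 relatives and 1 gene of the sestrin axis were lower, beside 4.98% of all genes.

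**Figure D5:**
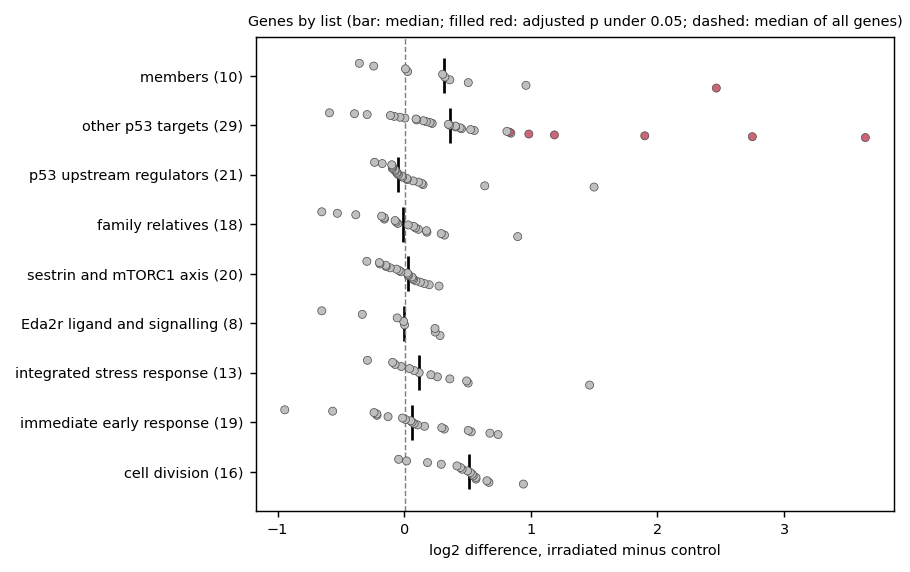
Log2 difference, irradiated minus control (horizontal axis), of each measured gene in 9 lists (rows, with the number of genes); bars are list medians, the dashed line is the median of all genes and filled points have an adjusted p under 0.05. Filled points appear among the members (1) and the other p53 targets (6) and in no other list shown.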

How the data were processed

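RNA of mouse lung was hybridised to single-colour Agilent arrays (9 arrays, Cy5). The authors deposited Feature Extraction output as intensity without normalisation between arrays, and a separate table of normalised intensity, also by the authors, which was used as an alternative. According to the methods, probes over 1.4 times the local background were kept and quantile normalised. Here the processed signal was used. Control and outlier spots were left out, probes over 1.4 times background on at least 4 arrays were kept (39303 of 39429), and the log2 signals were quantile normalised between arrays. Spots were numbered by position on the scan. Probes were named through accessions with a RefSeq gene table (GRCm38.p6, names only), which named 66.1%, and the brightest probe stood for a gene.

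Groups came from the labels. Irradiated and control arrays were compared with limma 3.58.1 (R 4.3.3), the variance following intensity, and Benjamini-Hochberg adjustment over all probes. Precision was limited by the number of arrays. The members and lists were chosen with earlier results of these data known. Named genes were all members; genes of a list past the threshold, or, where none or more than 6 passed, its 3 highest and 3 lowest differences; and the 3 genes most like a called member over 9 arrays. Alternatives were normexp (offset 50), scaling to the 75th percentile, other filters, the authors' table, array weights, no trend, an adjusted p under 0.01, the mean of all probes, leaving out each array, a replicate block and, added after the data were examined, scan pairs as fixed and random blocks.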

Additional observations from a re-analysis of the deposited data

Results flagged for a closer look

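In 6 of 66 tested groups of 4 or 5 arrays (9.09%), 1 array stood far from the others, and chance gives about 5%. The p53 target Zmat3 was at 11.56 on irradiated array 5 and at 12.15 to 12.33 on the other irradiated arrays. The other flags were in summed marker levels. Cardiac muscle markers were at 13.52 on irradiated array 1 and at 17.39 to 18.10 on the other irradiated arrays. Skeletal muscle markers were at 16.87 on control array 3 (10.95 to 11.40 on the other controls) and at 9.94 on irradiated array 1 (10.88 to 10.99 on the other irradiated arrays). B and plasma cell markers were at 15.43 on control array 3, with 16.29 to 16.46 on the other controls. Liver markers were at 12.19 on irradiated array 5, with 13.09 to 13.33 on the other irradiated arrays. No member was flagged. The part of these marker levels in the member differences was not tested.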

How the results depend on the processing

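Of the members, 1 passed in the main setting. The number was 0 with normexp, the authors' table, the replicate block, no trend, an adjusted p under 0.01 and the mean of all probes, and 2 with the scan pair block and its random form, and 0 to 2 on leaving out 1 array each (2 only without irradiated array 1). The other p53 targets passing were 6 in the main setting, 3 in the authors' table, 1 with the replicate block, 11 and 12 with the scan pair block and random block, 2 without the trend, 2 at 0.01, and 2 to 8 on leaving out 1 array. Of all probes, 131 passed in the main setting (75 higher, 56 lower), 198 with the filter on all 9 arrays, 206 with well above background on at least 4, 44 in the authors' table (11 higher, 33 lower), 1 with the replicate block, 1105 with the scan pair block, 2899 with the random block, 44 without the trend, 5 at 0.01, 205 with array weights and 5 to 483 on leaving out 1 array. Scaling to the 75th percentile gave 52 higher and 72 lower. Replicate numbers did not pair the arrays (correlations of deviations −0.17 to 0.062), and with the replicate block Eda2r was at 2.55 (limma adjusted p = 0.303). Scan pairs correlated at 0.20 to 0.45. Over the 22 alternatives, Eda2r was positive in all, at 0.69 to 2.71, with adjusted p from 0.00316 to 0.691, and Ccng1 was at 0.79 to 1.08, with adjusted p from 0.00735 to 0.264. Signs turned only for Btg2 (−0.0012 in the authors' table, −0.072 with the scan pair block, −0.040 with the random block, −0.014 with array weights, −0.12 to 0.14 on leaving out 1 array) and Ppm1d (−0.0085 with the scan pair block, −0.031 to 0.085 on leaving out 1 array). The cause was not tested. Signal over background limits Eda2r.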

Other observations

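Stress programmes that are not run by p53 alone gave no calls in this comparison. In the integrated stress response, which adapts cells to faulty protein folding and to amino acid shortage and to which Sesn2 also belongs, 0 of 13 genes passed limma. The highest were the cystine transporter gene Slc7a11 (1.46, adjusted p = 0.174), Psat1 (0.51, adjusted p = 0.0936) and Ddit3 (0.49). Slc7a11 was well above background on 3 of 4 control and 4 of 5 irradiated arrays. The lowest were Phgdh (−0.29), Eif2ak4 (−0.09) and Chac1 (−0.07). All irradiated arrays lay above all controls for 3 of the 13, Psat1, Ddit3 and Asns (0.26), which 3.4% of all genes did. An unadjusted p under 0.05 upward was found for 4 genes, beside 7.37% of all genes. Among 19 immediate early genes, to which Btg2 and Plk2 are often counted, 0 passed, from Junb (0.74), Egr2 (0.68) and Fos (0.53) to Klf2 (−0.24), Egr3 (−0.56) and Nr4a1 (−0.94). Egr3 was well above background on 2 of 4 control and 1 of 5 irradiated arrays, so its place is not settled. At an unadjusted p under 0.05, 2 were higher and 1 was lower, beside 7.37% of all genes higher and 4.98% lower. Among 16 cell division genes 0 passed, with a median of 0.51 and 15 positive differences. Ttk was well above background on 0 of 4 control and 1 of 5 irradiated arrays and Aurkb on 1 and 2, and neither is ranked. The highest of the others were Cdk1 (0.67) and Aurka (0.65), and the lowest were Bub1 (0.02) and Cdc20 (0.18). Among the genes well above background on all arrays, 5 had an unadjusted p under 0.05 upward, beside 7.37% of all genes.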
